A study of Mus musculus with 8 samples.

Results

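Growth arrest genes act as brakes on the cell cycle, and 9 of them were described here on arrays of mouse thymocytes: Cdkn1a, Cdkn1b and Cdkn2c, Btg1, Btg2 and Tob1, and Gadd45a, Gadd45b and Gadd45g. The members were all probe sets, each a set of short oligonucleotides read as a single signal, that the platform annotation assigns to 1 of these symbols and to no other gene. This gave 13 probe sets of 12422 on the array, of which 11 were among the 8281 bright enough to be tested and 2 were not. Cdkn1a, Cdkn1b, Tob1 and Gadd45b had more than 1 probe set.

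The study measured total RNA from double positive thymocytes, the CD4 and CD8 bearing precursors of T cells, in work titled as engagement of the T cell receptor (TCR) with antibodies. There were 4 groups of 2 arrays: control, overnight control, Valpha2 and Vbeta5, the last pair being named for segments of the TCR alpha and beta chains. Every group was the same cell type of the same species, and the labels give no strain, genotype, age, antibody clone, dose or hours of culture. Nothing in the labels says that the arrays of a group came from separate animals or cultures, so the p-values cover the variation between these arrays alone, and it could be technical.

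Cdk inhibitors stop cyclin-dependent kinases directly: p21 (Cdkn1a) and p27 (Cdkn1b) bind cyclin and kinase complexes, and p18INK4c (Cdkn2c) binds Cdk4 and Cdk6 and keeps D-type cyclins from activating them. Btg and Tob proteins bring the CCR4-NOT deadenylase to messenger RNAs, and Gadd45 proteins, induced by stress and by NF-kB among other signals, bind PCNA, cyclin-dependent kinase 1 and the kinase Map3k4 upstream of p38. In the thymus, double positive cells arise as cycling blasts and then become small resting cells in which the receptor is tested, so these genes stand at a point where division ends.

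The promoters of Cdkn2c, Gadd45b and Gadd45g are shown because these 3 genes carried the larger differences below. Each is the 250 bases before the outermost annotated start, from RefSeq on mouse build GRCm38.p6, 5′ to 3′ on the strand of the gene, and capitals mark any of 7 motifs found on either strand. Cdkn2c lies at chr4:109666757-109667006 on the minus strand, Gadd45b at chr10:80929841-80930090 on the plus strand and Gadd45g at chr13:51846425-51846674 on the plus strand.
Cdkn2c: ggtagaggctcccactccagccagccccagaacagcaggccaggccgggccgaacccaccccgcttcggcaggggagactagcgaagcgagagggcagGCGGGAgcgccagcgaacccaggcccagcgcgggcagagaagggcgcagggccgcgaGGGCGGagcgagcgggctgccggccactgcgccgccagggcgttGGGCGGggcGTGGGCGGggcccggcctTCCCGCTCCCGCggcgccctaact
Gadd45b: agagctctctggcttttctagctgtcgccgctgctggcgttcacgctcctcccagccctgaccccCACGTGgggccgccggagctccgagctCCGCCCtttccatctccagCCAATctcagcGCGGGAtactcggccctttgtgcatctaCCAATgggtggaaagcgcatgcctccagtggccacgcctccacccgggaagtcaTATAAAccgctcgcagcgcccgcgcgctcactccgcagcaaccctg
Gadd45g: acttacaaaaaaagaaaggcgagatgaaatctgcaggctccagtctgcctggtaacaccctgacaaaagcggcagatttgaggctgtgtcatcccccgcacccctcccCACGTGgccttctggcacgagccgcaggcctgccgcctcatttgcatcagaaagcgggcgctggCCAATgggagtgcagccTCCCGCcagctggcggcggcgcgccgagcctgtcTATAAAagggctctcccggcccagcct

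The motifs searched were the TATA box as TATAAA, the CCAAT box by its letters, the E-box as CACGTG, the GC box as GGGCGG, an Egr core as GTGGGCG, a CRE core as TGACGT and an E2F core as GCGGGA. The Egr core can overlap the GC box, as it does in Cdkn2c, and the CRE core its own reverse complement. Gadd45b and Gadd45g shared TATAAA, which 12.4% of 32851 promoters of this length hold, and CACGTG, which 6.02% hold. They were the only 2 of the 9 genes with CACGTG in this window, and TATAAA was also found in Btg1 and Tob1. Cdkn2c had neither and was the only member with GTGGGCG, held by 7.02% of promoters, at position -42, counted from -1 at the base before the start. It also had 3 matches to GCGGGA, which 16.9% of promoters hold and which 7 of the 9 genes had. TGACGT, in 6.47% of promoters, was found in Btg1 and Btg2, and CCAAT, in 33.8%, in 7 genes. GGGCGG, in 32.7%, was found in 8 genes. These gene counts take all 11 windows that the table holds for the 9 genes: Cdkn1a and Cdkn2c have a further window, the GGGCGG matches of Cdkn1a lie in its further window alone, and the window of Tob1 is not at its outermost start. A match describes letters and is not a site of binding.

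The arrays were deposited as linear signals with a trimmed mean of 250.14 to 250.16 on each, and their medians ran from 73.65 to 110.25. The 2 arrays of a group correlated over the tested probe sets with r from 0.87 in the overnight control to 0.95 in the control. The array numbered 1 of the overnight control, Valpha2 and Vbeta5 groups stood apart in RNA quality: the 3′ to 5′ ratio of the Gapdh control probe sets was 0.48 to 1.72 on the log2 scale, against -0.28 to -0.09 on the other 5 arrays. By the actin control probe sets it was 0.39 to 1.47 against 0.004 to 0.30. Vbeta5 1, at 0.39, was there close to overnight control 2, at 0.30. Differences are therefore also given without those 3 arrays. That fit keeps 1 array in each of those 3 groups, so its spread comes from the 2 control arrays alone. It cannot show whether a call holds without them. Among markers of the labelled cell type Cd4 was at 680.1 to 3591.2, Cd8a at 2143.0 to 8257.1 and Rag1 at 1840.3 to 14715.4. Ptcra was dimmer, at 56.3 to 181.8, and the lowest value of each of these was on a Vbeta5 array. Cd3e went otherwise: it was lowest on overnight control 1, at 2445.8, and was at 4669.3 and 2670.9 on the Vbeta5 arrays. The summed signal of 11 such genes was 48723 to 52953 on control and 20828 to 33868 on Vbeta5 arrays. It was 62256 to 62278 on overnight control and 52156 to 65325 on Valpha2 arrays. In limma 4 of 11 passed as lower in Vbeta5 against control, beside 1.61% of all probe sets, and 3 of 11 against overnight control, beside 0.616%. In the same order, 1 and 3 of the 11 were on the higher side. Markers of other cells moved to some extent with the groups: the summed signal of 4 B cell genes was 229.1 to 399.6 on control arrays and 350.4 to 692.0 on the others, and that of 6 macrophage and monocyte genes was 306.2 to 324.0 against 320.6 to 780.2. For 5 fibroblast and endothelial genes the sums were 691.8 to 769.4 on control and 527.2 to 1684.4 on the other arrays, both extremes being in the overnight control, for 3 erythroid genes 135.5 to 413.3 against 156.2 to 439.7, and for 4 thymic epithelial genes 48.0 to 92.3 against 54.8 to 204.8. Csf1r was at 33.0 to 67.9 on control and 89.5 to 236.5 on the others, and Col1a1 at 139.4 to 152.2 against 87.4 to 336.7. Among the genes of these lists, Cd22, Lyz2, Adgre1, Col3a1, Cdh5, Epcam and Foxn1 were under a signal of 50 on every array. The part of these cells in the results below was not tested.

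Over the whole set, 0 of the 11 probe sets passed in any of the 4 comparisons planned for these groups, and the clearest separation was between the 2 control arrays and the other 6. Cdkn2c was lower on all 6 and Gadd45b, by both of its probe sets, was higher on all 6. These were 3 of 11 member probe sets, beside 14.2% of all probe sets tested that separated in this way. Gadd45g had its highest signals on the 2 Vbeta5 arrays, and for the other 7 tested probe sets the control arrays overlapped the other 6. A moderated F test for any difference among the 4 groups, in limma, gave adjusted p = 0.067 for Cdkn2c and 0.0688 and 0.0837 for the probe sets of Gadd45b, and 0 of 11 passed beside 1.03% of all probe sets tested. At an unadjusted p under 0.05 the count was 4 of 11, the fourth being Gadd45g with an adjusted p of 0.492, and the background share was 9.72%. The adjusted p of the other 7 was 0.855 or more. With the data number of the titles as a block, 3 of 11 passed the F test. The share of all probe sets that passed in that fit is not given here, so the count has no background beside it. In that fit Gadd45b 102779_at also passed in overnight control against control (limma adjusted p = 0.0487). The labels do not say that these numbers pair samples.

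**Figure D1:**
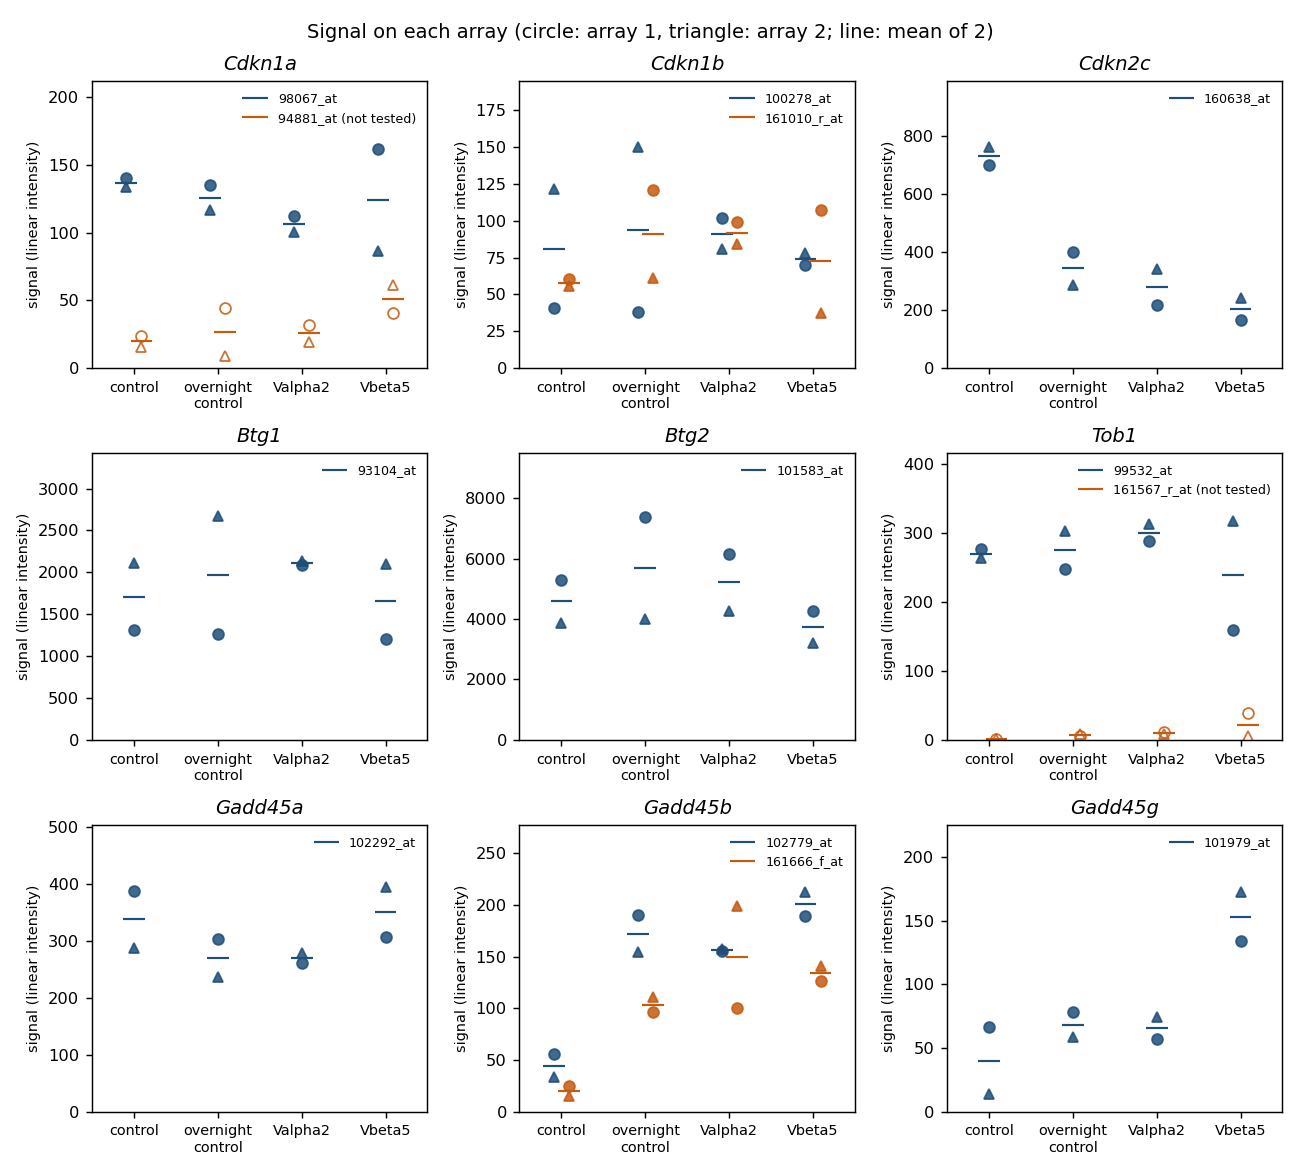
Signal (linear intensity, from 0) of each probe set of the 9 genes on each of the 8 arrays, by group; circles are arrays numbered 1, triangles arrays numbered 2, and lines the means of 2. Cdkn2c is at 699.1 and 762.5 on the control arrays and at 165.6 to 402.2 on the others, Gadd45b 102779_at is at 33.6 and 55.5 against 154.3 to 212.4, and the scale differs between genes.

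Among the Cdk inhibitors, Cdkn2c (probe set 160638_at) had a signal of 699.1 and 762.5 on the control arrays, 402.2 and 285.5 on the overnight control arrays, 218.6 and 340.4 on the Valpha2 arrays, and 165.6 and 241.9 on the Vbeta5 arrays. The 2 control arrays were above all 6 others, whose own ranges overlapped except that both Vbeta5 arrays were below both overnight control arrays. The means were 730.8 ± 44.8, 343.9 ± 82.5, 279.5 ± 86.1 and 203.8 ± 54.0 (SD, n = 2) in that order, so the order of the means was control, overnight control, Valpha2, Vbeta5. On bulk RNA, fewer cells of a type and less RNA per cell cannot be told apart.

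Beyond the planned comparisons, the step from control to the rest and the comparisons of Vbeta5 and Valpha2 with control were tested. All of them were chosen after these values were seen. All differences below are of log2(signal + 17). With the mean of the 3 other group means set against control, Cdkn2c fell by 1.40 ± 0.26 (SE; 95% interval -1.97 to -0.84; limma adjusted p = 0.0275), a level 2.65-fold lower. In this comparison 3 of 11 member probe sets passed, beside 1.22% of all probe sets tested. In Vbeta5 against control Cdkn2c fell by 1.78 ± 0.31 (limma adjusted p = 0.0205), again 1 of 3 member probe sets that passed, beside 1.61% of all probe sets. By gene 2 of 9 passed in either comparison, Gadd45b as higher and Cdkn2c as lower. Without the 3 arrays of high 3′ to 5′ ratio Cdkn2c was at -1.53 in Vbeta5 against control. In Valpha2 against control the difference of -1.36 ± 0.31 had an adjusted p of 0.141, and 0 of 11 members passed in limma, 3 at an unadjusted p under 0.05, beside 0.399% and 7.46% of all probe sets. These comparisons share the control arrays, and whether the Valpha2 and Vbeta5 differences differ is the Vbeta5 against Valpha2 comparison, where Cdkn2c differed by -0.42 ± 0.31 (adjusted p = 0.827).

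The calls rest on few arrays. Without control 1 or without control 2, 0 of the 3 calls against the other 6 arrays passed, with Cdkn2c at -1.47 (adjusted p = 0.395) and -1.34 (0.31), and the count over all 8281 tested probe sets went from 101 to 0. The 3 calls also became 0 without Vbeta5 1, and 1 without Valpha2 1, Valpha2 2 or Vbeta5 2. Without the 3 arrays of high 3′ to 5′ ratio Cdkn2c was at -1.30. Without the variance trend its adjusted p was 0.0935. Over the alternatives the Cdkn2c difference ran from -1.59 to -1.30.

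In the planned comparisons Cdkn2c was lower in overnight control than in control by a difference of -1.07 ± 0.31 (95% interval -1.77 to -0.37; adjusted p = 0.297), which did not pass. In Vbeta5 against overnight control it was at -0.71 ± 0.31 (interval -1.41 to -0.01; unadjusted p = 0.0463, limma adjusted p = 0.576). Without the 3 arrays of high 3′ to 5′ ratio this difference was -0.22. In the fit to all 8 arrays Cdkn2c was the only 1 of 11 members at an unadjusted p under 0.05 in that comparison. This stands beside 8.49% of all probe sets, and 0 passed beside 0.616%. In Valpha2 against overnight control the sign of Cdkn2c turned between settings and no value is given.

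Cdkn1a (p21) was read by a brighter and a dimmer probe set. The brighter, 98067_at, was at 140.0 and 133.4 on control, 135.1 and 116.6 on overnight control, 112.1 and 100.4 on Valpha2, and 161.8 and 86.3 on Vbeta5 arrays. The 2 Vbeta5 arrays spanned the range of all others, and both Valpha2 arrays were below both overnight control arrays. Its difference in Valpha2 against overnight control was -0.21 ± 0.38 (interval -1.05 to 0.62; adjusted p = 1.00), and in overnight control against control it was -0.11 ± 0.38 (adjusted p = 0.945). The dimmer, 94881_at, ran from 8.8 to 61.5, had its 2 highest signals at 61.5 on Vbeta5 2 and 44.5 on overnight control 1, and was not tested.

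Cdkn1b (p27) had probe sets that did not move together between arrays. By 100278_at it was at 40.6 and 121.2 on control, 37.8 and 150.2 on overnight control, 101.8 and 80.7 on Valpha2, and 69.8 and 78.2 on Vbeta5 arrays. By 161010_r_at it was at 60.6 and 55.4, 121.1 and 61.1, 99.4 and 84.2, and 107.6 and 37.5 in the same order. Array 1 was higher in 4 of 4 groups by 161010_r_at and in 1 of 4 by 100278_at. The largest gap between 2 arrays of a group was 1.61 on the log2 scale for 100278_at, in the overnight control, so the SE of its differences, 0.59, was the widest of the set. In overnight control against control 161010_r_at was at 0.47 ± 0.50 (interval -0.64 to 1.58; adjusted p = 0.786), and in Vbeta5 against Valpha2 100278_at was at -0.25 ± 0.59 (interval -1.56 to 1.07; adjusted p = 0.962).

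The Btg and Tob genes showed no difference that passed, and of these Btg1 and Btg2 were bright. Btg1 (93104_at) was at 1306.1 and 2109.0 on control, 1261.6 and 2667.9 on overnight control, 2092.2 and 2139.8 on Valpha2, and 1210.1 and 2099.7 on Vbeta5 arrays. Array 2 was higher than array 1 in 4 of 4 groups, by a median gap of 0.74 on the log2 scale, and no 2 groups separated. In Vbeta5 against Valpha2 its difference was -0.40 ± 0.38 (interval -1.25 to 0.44; adjusted p = 0.876).

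Btg2 (101583_at), a p53 and immediate-early gene, was at 5307.9 and 3874.4 on control, 7391.3 and 4014.9 on overnight control, 6157.4 and 4273.3 on Valpha2, and 4269.0 and 3210.2 on Vbeta5 arrays. Here array 1 was higher in 4 of 4 groups, by a median of 0.49 on the log2 scale, opposite to Btg1. Both Vbeta5 arrays were below both Valpha2 arrays, narrowly, at 4269.0 against 4273.3, and the group mean was lowest in Vbeta5 at 3739.6. Its difference was -0.56 ± 0.32 in Vbeta5 against overnight control (interval -1.27 to 0.16; adjusted p = 0.752) and -0.47 ± 0.32 against Valpha2 (interval -1.19 to 0.25; adjusted p = 0.802). Its mean level over the arrays was at percentile 99.1 of all probe sets, and that of Btg1 at 96.6.

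Tob1 (99532_at) was at 276.5 and 262.8 on control, 247.3 and 302.8 on overnight control, 287.9 and 312.6 on Valpha2, and 159.7 and 316.8 on Vbeta5 arrays. The lowest and the highest signals were both on Vbeta5 arrays, and its sign turned between settings in each planned comparison. A dimmer probe set for Tob1, 161567_r_at, was at 1.2 to 38.7, under 17 on 7 of 8 arrays, and was not tested.

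Gadd45b, induced by NF-kB and stress signals, gave the largest differences of the set against control. By 102779_at its signal was 55.5 and 33.6 on control, 189.9 and 154.3 on overnight control, 155.3 and 157.2 on Valpha2, and 189.2 and 212.4 on Vbeta5 arrays. By 161666_f_at it was 24.7 and 15.7, 96.2 and 110.9, 100.0 and 198.7, and 126.8 and 141.0 in that order. By either probe set both control arrays were below all 6 others. For 102779_at the overnight control arrays overlapped those of both antibody groups, and for 161666_f_at the Valpha2 arrays overlapped those of the overnight control and Vbeta5.

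Gadd45b rose in the comparison of the other 6 arrays with control by 1.67 ± 0.29 for 102779_at (95% interval 1.03 to 2.30; adjusted p = 0.0198; 3.17-fold) and by 1.95 ± 0.35 for 161666_f_at (interval 1.17 to 2.72; adjusted p = 0.0247; 3.85-fold). In Vbeta5 against control it rose by 1.84 ± 0.35 (adjusted p = 0.0278) and 2.03 ± 0.43 (adjusted p = 0.0453), and in Valpha2 against control the differences were 1.52 ± 0.35 and 2.10 ± 0.43, with adjusted p of 0.141 and 0.0795. In overnight control against control they were 1.64 ± 0.35 (unadjusted p = 0.000811, adjusted p = 0.102) and 1.70 ± 0.43 (adjusted p = 0.169). Neither passed there, and 0 of 11 members did, beside 0.181% of all probe sets, with 3 at an unadjusted p under 0.05 beside 9% of all.

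These calls too depend on single arrays and on settings. Without control 1 and control 2 in turn, 102779_at was at 1.93 (adjusted p = 0.305) and 1.41 (0.309) against the other 6 arrays, and 161666_f_at at 2.12 (0.325) and 1.77 (0.307). Without the 3 arrays of high 3′ to 5′ ratio they were at 1.65 and 2.15, and in Vbeta5 against control at 1.92 and 2.10. The 161666_f_at call against the other 6 arrays was lost with quantile normalization (adjusted p = 0.0773) and with no filter (0.0534). In Vbeta5 against control both Gadd45b calls were lost with quantile normalization, a common median, no filter or no variance trend, with adjusted p from 0.0532 to 0.111. The Vbeta5 against control calls dropped from 3 to 0 without either control or either Vbeta5 array and to 1, Cdkn2c, without either Valpha2 array. The control signals of 161666_f_at lay near the offset of 17, with 15.7 below it, so its fold depends on the offset.

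Against the overnight control or between antibodies no Gadd45b difference passed. In Vbeta5 against overnight control the differences were 0.21 ± 0.35 (interval -0.57 to 0.99) and 0.33 ± 0.43 (interval -0.62 to 1.27), with adjusted p of 0.992 and 0.976. In Vbeta5 against Valpha2 102779_at was at 0.33 ± 0.35 (interval -0.45 to 1.11; adjusted p = 0.896), although both Vbeta5 arrays were above both Valpha2 arrays.

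Gadd45g (101979_at) was at 66.2 and 14.1 on control, 78.1 and 58.7 on overnight control, 56.8 and 74.3 on Valpha2, and 133.9 and 172.4 on Vbeta5 arrays. The 2 Vbeta5 arrays were the highest of the 8, and the 2 control arrays were 1.42 apart on the log2 scale, the widest gap of any group for this gene. The difference was 0.99 ± 0.51 in Vbeta5 against overnight control (interval -0.14 to 2.13; adjusted p = 0.681) and 1.04 ± 0.51 in Vbeta5 against Valpha2 (interval -0.10 to 2.18; adjusted p = 0.651). Against control it was 1.73 ± 0.51 in Vbeta5 (interval 0.59 to 2.87; limma adjusted p = 0.173), which did not pass. In overnight control against control it was 0.74 ± 0.51 (interval -0.40 to 1.88; limma adjusted p = 0.67) and ran from 0.03 to 1.45 over the settings. In the 6 other arrays against control it was 1.05 ± 0.42 (interval 0.12 to 1.98; limma adjusted p = 0.404). The sign was kept under every setting in each of these comparisons. The difference ran from 0.83 to 1.32 in Vbeta5 against overnight control, from 0.88 to 1.23 against Valpha2, and from 1.02 to 2.44 against control, where leaving out control 2 or control 1 gave the 2 ends.

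Gadd45a (102292_at), a p53 target, was at 388.1 and 288.1 on control, 303.4 and 236.9 on overnight control, 261.8 and 279.9 on Valpha2, and 307.8 and 395.8 on Vbeta5 arrays. Both Vbeta5 arrays were above all overnight control and Valpha2 arrays but not above both control arrays. The differences were 0.36 ± 0.29 in Vbeta5 against overnight control (interval -0.27 to 0.99; adjusted p = 0.872), 0.35 ± 0.29 against Valpha2 (interval -0.28 to 0.98; adjusted p = 0.849) and -0.30 ± 0.29 in overnight control against control (adjusted p = 0.754).

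Arrays of 2 groups of 2 often separate without a difference that passes. In Vbeta5 against overnight control 4 of 11 member probe sets did not overlap (Cdkn2c, Gadd45a, Gadd45g and 161666_f_at of Gadd45b), beside 31.1% of all probe sets tested. In Vbeta5 against Valpha2 it was 5 of 11 beside 40.4%, in Valpha2 against overnight control 1 of 11 beside 20.8%, and in overnight control against control 4 of 11 beside 37.9%. For the control arrays against the other 6 it was 3 of 11 beside 14.2%. In Vbeta5 against Valpha2, 0 of 11 passed in limma and 0 had an unadjusted p under 0.05, beside 0.278% and 8.19% of all probe sets. In Valpha2 against overnight control both counts were also 0, beside 0% and 1.62%. Of the 44 pairs of a probe set and a planned comparison, 21 kept their sign in every setting and 23 turned it in at least 1.

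**Figure D2:**
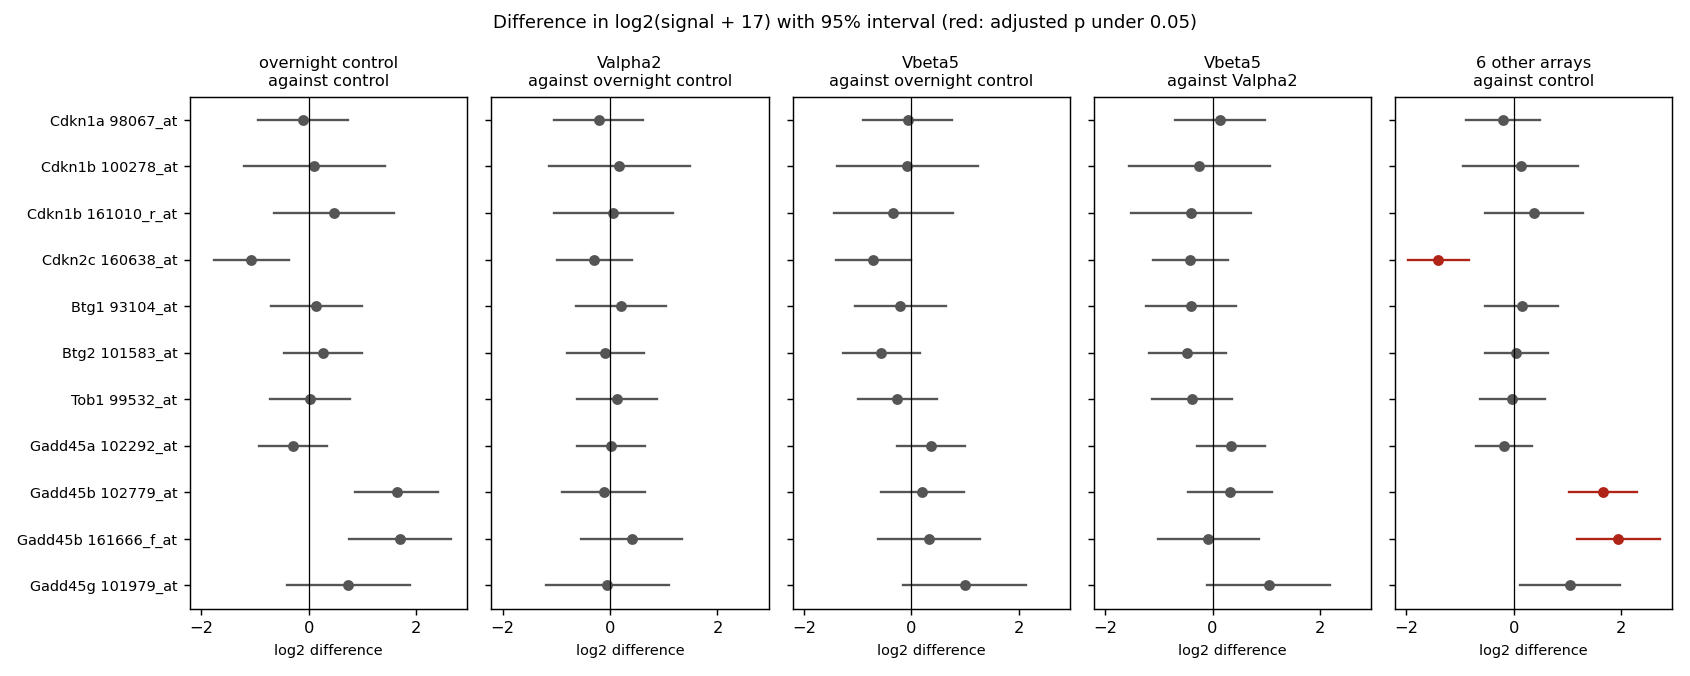
Differences in log2(signal + 17) of the 11 tested probe sets (rows) in the 4 planned comparisons and in the 6 other arrays against control (panels), with 95% intervals; red marks an adjusted p under 0.05. The intervals of Cdkn2c and of both Gadd45b probe sets lie clear of 0 in overnight control against control, where none passed after adjustment.

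Genes that work with these inhibitors were counted by lists, 1 probe set a gene, some genes standing in more than 1 list. The lists were chosen with earlier results of these data known, and the step from control to the other 6 arrays after its values were seen. The shares beside the counts are therefore descriptive. Of 23 tested proliferation markers, 0 were on the higher side in the other 6 arrays against control, with a median difference of -1.69 beside 0.08 over all probe sets tested. Of these 23, 19 passed, beside 1.22% of all probe sets. Those of smallest p were Mcm5 (-1.96 ± 0.20, adjusted p = 0.00337), part of the replicative helicase, Rrm2 (-3.68 ± 0.37, 0.00337), a subunit of ribonucleotide reductase, Mki67 (-2.26 ± 0.30, 0.0104) and Mcm3 (-1.73 ± 0.23, 0.0104). In overnight control against control 1 of 23 was on the higher side, with a median of -1.58, and 5 passed as lower, beside 0.181% of all probe sets. Among them were Mcm5 at -2.14 (limma adjusted p = 0.0211), Rrm2 at -3.48 (0.0211), Mcm3 at -1.85 (0.0333) and Rrm1 at -2.43 (0.0333). None of the 5 passed without either control array or without overnight control 1, where no probe set on the array did. The medians on single arrays relative to the control mean were -1.70 and -1.46 in overnight control, -1.72 and -1.68 in Valpha2, and -1.84 and -1.41 in Vbeta5, so the 3 groups overlapped. The first value of each pair is from the array of high 3′ to 5′ ratio. In Vbeta5 against overnight control 0 of 23 passed, as in Valpha2 against overnight control and Vbeta5 against Valpha2.

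**Figure D3:**
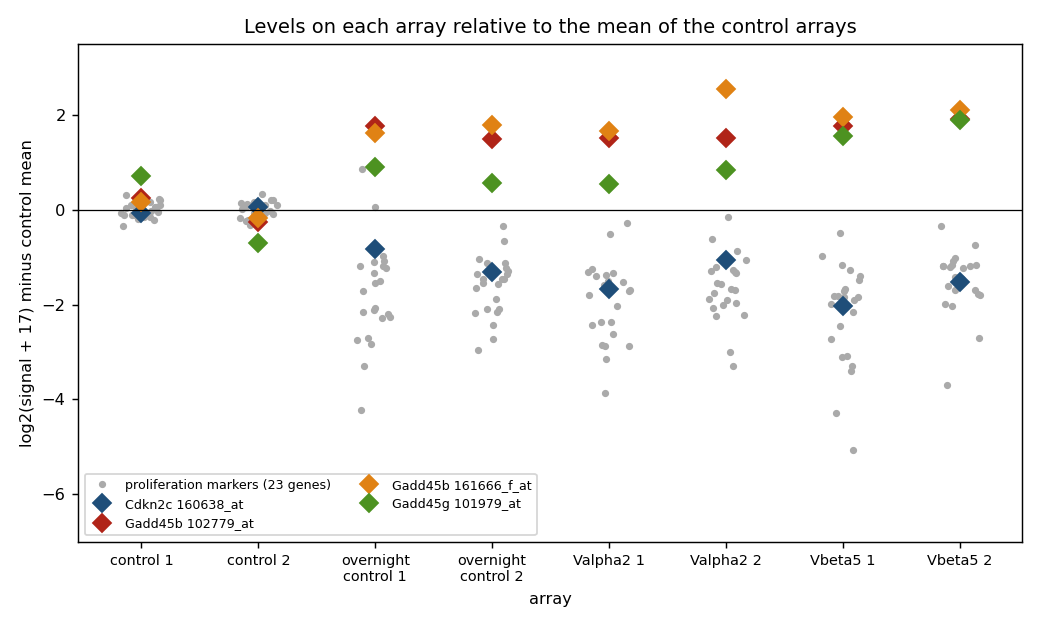
Level on each array as log2(signal + 17) minus the mean of the control arrays; grey points are 23 proliferation markers and diamonds are the probe sets of Cdkn2c, Gadd45b and Gadd45g. The medians of the markers on the 6 arrays other than control run from -1.84 to -1.41, Cdkn2c lies below 0 on the same 6 arrays and both Gadd45b probe sets above.

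Of 8 tested cyclins, kinases and PCNA, to which the inhibitors bind, 1 was on the higher side in the 6 other arrays against control, with a median of -1.39. Beside 1.22% of all probe sets tested, 4 of the 8 passed, all lower. They were Cdk1 (-2.16 ± 0.39, adjusted p = 0.0257), the mitotic kinase, Ccnd3 (-1.89 ± 0.31, 0.0169), the D-type cyclin needed for expansion of early thymocytes, Pcna (-1.58 ± 0.27, 0.0193) and Ccna2 (-1.50 ± 0.23, 0.0147). Cdk4, the kinase that p18INK4c binds, was at -0.58 ± 0.19 (adjusted p = 0.254). Cdk4 signals were 1598.9 and 1377.3 on control, 749.4 to 1036.0 on overnight control and Valpha2, and 1331.6 and 1374.1 on Vbeta5 arrays. Cdkn2c fell in the same comparison as Ccnd3, whose signal was 5087.0 and 6248.4 on control arrays and 915.7 to 2385.3 on the others.

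Of 14 genes for turnover and control of the inhibitors 1 was on the higher side in that comparison, with a median of -0.32 beside 0.08 over all probe sets. The 2 that passed, beside 1.22% of all probe sets, were lower. They were Cks1b (-1.70 ± 0.29, limma adjusted p = 0.0198), the cofactor with which SCF-Skp2 marks p27 for degradation, and its relative Cks2 (-1.61 ± 0.26, 0.0169). Akt1, a kinase that phosphorylates p21 and p27, was at -0.68 ± 0.21 (adjusted p = 0.232) and the transcription factor E2f1 at -1.05 ± 0.42 (0.406). Of 13 partners of the Btg, Tob and Gadd45 proteins 6 were on the higher side, with a median of -0.09, and only Pcna passed, as lower. Prmt1, the arginine methyltransferase bound by Btg1 and Btg2, was at -0.77 ± 0.33 (adjusted p = 0.451), and Cnot3, a CCR4-NOT subunit, at -0.59 ± 0.30 (0.542). Of 10 p53 targets 0 passed in limma, with a median of 0.36, the smallest p-values belonging to Sesn1 (0.70 ± 0.19, adjusted p = 0.162) and Ccng1 (0.62 ± 0.25, 0.412). Of 24 other growth arrest genes 14 were on the higher side and 1 passed, as lower: Mxd3 (-2.49 ± 0.49, adjusted p = 0.0378), a Mad family partner of Max that is expressed in S phase. In that list Ddit3 was at 0.86 ± 0.22 (adjusted p = 0.125), the retinoblastoma relative Rbl1 at -0.88 ± 0.34 (0.372) and the INK4 inhibitor Cdkn2d at -0.50 ± 0.19 (0.377). Without control 1 or control 2 none of these list genes passed, since no probe set on the array did. The fit without the 3 arrays of high 3′ to 5′ ratio keeps 1 array in each group other than control, so its calls are not counted here. Without the variance trend 6 proliferation markers passed and none of the other list genes did, and Mxd3 was also lost with a floor at 17, with no filter and without Valpha2 1, Vbeta5 1 or Vbeta5 2. Without Valpha2 1 Cdk1 and Pcna did not pass.

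**Figure D4:**
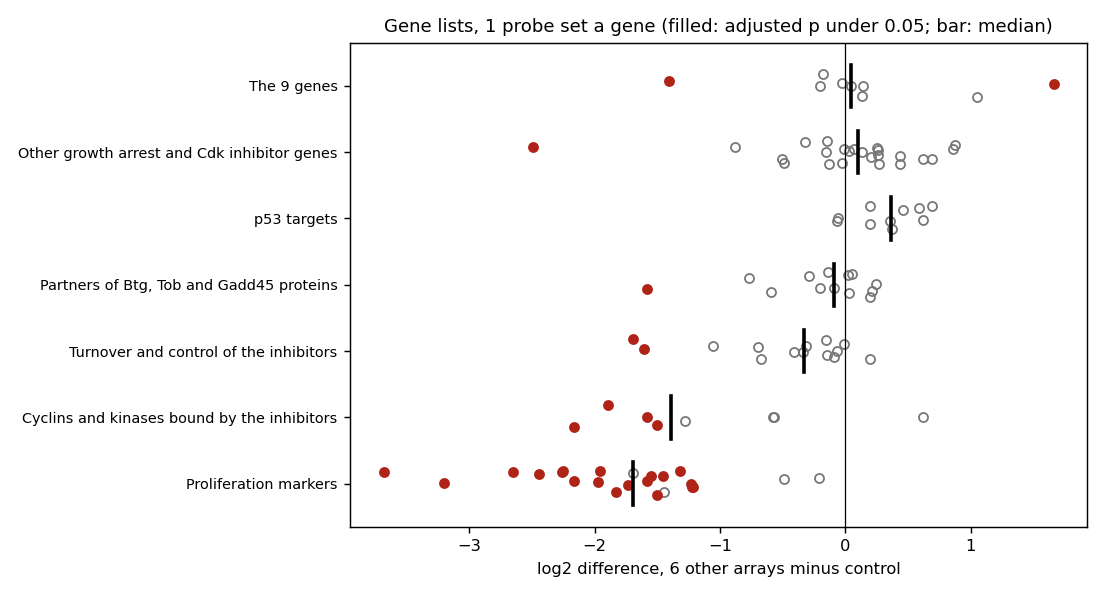
Difference in log2(signal + 17) between the 6 other arrays and the control arrays for each tested gene of the lists (points; filled where adjusted p was under 0.05), with list medians as bars. The median is -1.69 for the proliferation markers and 0.36 for the p53 targets.

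In the antibody comparisons these lists gave 0 calls in limma, while 6 of 15 early TCR response genes passed as higher in Vbeta5 against overnight control, beside 0.616% of all probe sets, and 2 of 15 in the direct comparison of Vbeta5 with Valpha2, beside 0.278%. On the higher side were 15 and 14 of the 15. The 6 calls were lost without Vbeta5 2 or without the variance trend. Over the other alternatives that kept 2 arrays in every group the count was 2 to 7. The 2 ran from 0 to 7 over the alternatives that kept 2 arrays in every group compared. The count was 0 with a common median, no variance trend or only the arrays compared. These 2 calls were also lost without either control array, Valpha2 1 or Vbeta5 2. In Vbeta5 against overnight control 4 of the 24 other growth arrest genes were on the higher side, with a median of -0.30 beside -0.01 over all probe sets tested.

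For each probe set that passed, the 3 genes with the most similar pattern over the 8 arrays, by Pearson r of log2(signal + 17), were taken. For Cdkn2c they were E2f8 (r = 0.98), Pa2g4 (0.97) and Stil (0.96). E2f8 was at 299.7 and 281.3 on control and 7.5 to 65.3 on the other arrays. For Gadd45b they were Pi4ka (0.98), Invs (0.96) and Ddit3 (0.96) by 102779_at, and Gsto1 (0.93), Gpcpd1 (0.93) and Relb (0.93) by 161666_f_at, with no gene in common between the probe sets. Ddit3, a stress-induced transcription factor, was at 173.0 and 139.6 on control and 254.4 to 368.7 on the others. These correlations describe 8 arrays in 4 groups, with the 2 control arrays at 1 end for each of these genes.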

How the data were processed

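Total RNA of 8 samples was measured on 1-colour oligonucleotide arrays. The authors deposited 1 table with a linear intensity for 12488 probe sets per array, per the labels normalized; the sources used here name neither software nor scaling method. The values were used as deposited. After 66 control probe sets were left out, log2(signal + 17) was taken, 17 being the 20th percentile of positive values, so folds of dim probe sets are understated. The dimmest 33.3% by mean were left out and 8281 were tested with limma 3.58.1 in R 4.3.3: 1 mean per group over the 8 arrays, eBayes with a variance trend, and Benjamini-Hochberg adjustment over all tested probe sets within a comparison (two-sided, threshold 0.05). The number of arrays limits the precision, and detection calls were not used here.

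Probe sets were named by the platform annotation, brought up to date by gene identifier with RefSeq (GRCm38.p6): 10833 probe sets had 1 symbol, 396 several and 1193 none, and 10817 matched. Sequences came from RefSeq.

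The members and lists were chosen with earlier results of these data known. A member's difference is printed only where it passed or kept its sign in every alternative setting, and not every such difference is printed. For lists, up to 4 genes of smallest p are named where any passed and 2 otherwise, with the same condition on sign; Cdk4 and Cdkn2d were named beyond it after their values were seen. Alternatives covered normalization, offset, filter, variance trend, replicate block, arrays fitted and each array left out. The fit was tested on simulated data.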

Additional observations from a re-analysis of the deposited data

How the results depend on the processing

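Counts of member probe sets that passed stayed at 0 under all 18 alternatives in Vbeta5 against overnight control, Valpha2 against overnight control and Vbeta5 against Valpha2. A member difference that did not pass is printed only where its sign held in every setting, so the printed signs cannot show robustness. Of the 44 pairs of a probe set and a planned comparison, 23 turned sign in at least 1 setting. With the replicate number as a block, 1 member (Gadd45b 102779_at, limma adjusted p = 0.0487) passed in overnight control against control, 1 in Valpha2 against control, and 3 in the F test, where 0 had. The shares of all probe sets in the blocked fit are not given here, so these counts have no background beside them. The labels do not say that the data numbers pair samples, so the block is not the main fit. There are only 2 numbers, and same-numbered arrays deviated together in every group pair, with r from 0.10 to 0.34. Whether the numbers mark a shared batch was not tested. The fit without the 3 arrays of high 3′ to 5′ ratio keeps 1 array in each group but control. Its spread is that of the control arrays alone, and the ranges over all probe sets below include it. Leaving out 1 array at a time gave 0 to 2 in the F test (2 without overnight control 2), 0 to 3 in the 6 other arrays against control, and 0 to 3 in Vbeta5 against control. Vbeta5 against control went from 3 to 1 with quantile normalization, with a common median or with no filter, and to 0 without the variance trend. Median log2(signal + 17) was 6.55 in control, 6.78 in overnight control, 6.69 in Valpha2 and 6.75 in Vbeta5, a shift that the common median removes. Over all probe sets, calls ranged over the alternatives from 0 to 144 in Vbeta5 against overnight control (51 as reported), 0 to 1 in Valpha2 against overnight control (0), 0 to 90 in Vbeta5 against Valpha2 (23), 0 to 119 in overnight control against control (15), 0 to 293 in Vbeta5 against control (133), 0 to 89 in Valpha2 against control (33), 0 to 219 in the 6 other arrays against control (101) and 0 to 249 in the F test (85). Other causes of these changes were not tested. Signals near 17 have little precision.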
